A study of Nicotiana tabacum with 54 samples.

Results

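NtGSTU1, NtGSTU3 and NtGSTU24 are 3 Tau-class glutathione S-transferase genes of tobacco (Nicotiana tabacum) that the study's duplication table joins through NtGSTU3. NtGSTU1 is listed there as its tandem duplicate and NtGSTU24 as its segment duplicate. The 3 genes were taken by their identifiers, Nitab4.5_0000923g0100, Nitab4.5_0002209g0170 and Nitab4.5_0001864g0050, out of 69500 genes in the expression tables, 59 of them NtGST members and 40 of these Tau members. All 3 have a value in every library. They were joined by their listed duplications, and were chosen for description with earlier results of these data known.

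Transcripts were measured by RNA sequencing in root, stalk and leaf of 6 tobacco materials, which the labels name Hongda, HxB, Basma, Va116, VxG88 and GDH88. The labels write HxB and VxG88 with a cross sign, as for crosses of Hongda with Basma and of Va116 with GDH88, but state no parents. Beside Hongda, Va116 and GDH88, the study's methods list HG, GDH11 and VG as sequenced, and do not mention HxB, Basma or VxG88. No source used here links these names, so the identity of the materials under those labels is not settled. No plant was described as carrying a transgene or an added agent, and all were sampled after topping, when the flower head is taken off the plant. There were 3 libraries for each tissue of each material, 18 per tissue and 54 in all. The study's methods describe several plants per biological replicate for its tissue sampling. They take the RNA sequencing from earlier data of the group and give no plant number for it. The columns of the tables are numbered 1, 2 and 3 within a group. Because nothing links these numbers with the samples' replicate letters, libraries are called by material, tissue and column number.

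Glutathione S-transferases join the tripeptide glutathione to reactive or foreign compounds, and several also act as glutathione peroxidases. The Tau class is specific to plants, is usually the largest class of the family, and is known for herbicide detoxification and for responses to stress. After a gene is duplicated, its copies can keep the same tissues of expression or come to differ in them, and the tables allow that comparison for a tandem copy and a segment copy of the same gene.

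The study's annotation table places NtGSTU3 on chromosome 1 from 19817106 to 19818589 with 7 exons, and NtGSTU1 on the same chromosome from 19950319 to 19951560, also with 7 exons. NtGSTU24 is placed on chromosome 10 from 114350411 to 114354676 with 2 exons. Which genome build these positions refer to was not stated. Between NtGSTU3 and NtGSTU24 the listed gene structures therefore differ as well as the chromosomes. NtGSTU2 lies beside NtGSTU3 by these positions, and its identifier shares its scaffold number with that of NtGSTU1. NtGSTU25, NtGSTU26 and NtGSTU27 share their scaffold number with NtGSTU24, but the table spreads these 4 genes over chromosome 10 from 9267245 to 154131371.

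The sequences that separate the copies in the study's table of predicted upstream elements are short motifs, shown here because they are the only part of these genes whose letters the sources give. The methyl jasmonate motif TGACG and its reverse complement CGTCA are listed for NtGSTU1 and NtGSTU3 and not for NtGSTU24. The auxin-related core GGTCCAT and the MYB site AACCTAA are listed for NtGSTU24 alone of the 3 copies. The abscisic acid motif ACGTG and the MYB site CAACTG and the meristem element GCCACT are listed for all 3. The low-temperature motif CCGAAA and the anaerobic element AAACCA are listed for NtGSTU24 and NtGSTU3, and the light-related ATTAAT and GGTTAA for NtGSTU24 and NtGSTU1. These are a selection. Elements listed for NtGSTU3 alone include HD-Zip 1 (palisade mesophyll), the circadian element and the gibberellin-related P-box and GARE-motif. Those for NtGSTU1 alone include the light-related GATA-motif and I-box, and the light-related TCT-motif is listed for NtGSTU24 and NtGSTU3. No upstream sequence was searched here and the share of other promoters with these motifs was not computed, so the listing is a description of letters and not of bound sites.

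The values are FPKM (fragments counted per gene, scaled to transcript length and to the library's mapped fragments), and their sums per library were 773020 to 818154 in root, 768375 to 832327 in stalk and 792647 to 823454 in leaf. Since read counts were not part of these tables, the depth is unknown. Each library was set against the mean profiles of the materials in the other tissues, over genes that differed among materials there, and 49 of 54 libraries matched their own material best. The 5 others were Basma root 1 and VxG88 stalk 1 (best match HxB), GDH88 root 2 (VxG88), GDH88 stalk 1 (Basma) and VxG88 leaf 2 (Va116). No 2 of the 54 columns were identical. In root, column 1 of Hongda, GDH88, HxB and Basma stood apart, with median correlations to the other root libraries of 0.839, 0.875, 0.877 and 0.878, against 0.905 to 0.946 for the others. In stalk, Hongda 3 (0.879) and Va116 2 (0.883) also lay below 0.9, and they hold the highest and the lowest NtGSTU1 stalk values, 8.65 and 0.78 FPKM. The fits below without libraries that stood apart left out root libraries only. In leaf, 24.1% of the 35971 genes tested differed among column numbers 1, 2 and 3, against 2.45% in root and 0% in stalk (0 of 35994 genes by limma's F test at an adjusted p under 0.05, 1402 at an unadjusted p under 0.05). What the number stands for is not stated, and results are given below within each number where it touches them.

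NtGSTU1 and NtGSTU3 were highest in root, and NtGSTU24 was highest in leaf and lowest in root. NtGSTU1 led the trio in every root library, and NtGSTU24 led it in every stalk and leaf library. NtGSTU3 was seen at more than 1 FPKM in root only, in all 18 of its libraries.

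NtGSTU3, the copy that joins the other two, had 25.87, 11.21 and 5.93 FPKM in root of Hongda, 17.04, 12.74 and 20.25 FPKM in HxB and 19.17, 10.43 and 14.82 FPKM in Basma. It had 16.59, 6.54 and 23.44 FPKM in root of Va116, 4.92, 12.58 and 20 FPKM in VxG88 and 2.33, 8.19 and 9.11 FPKM in GDH88. The values of one material varied widely, and the 3 GDH88 libraries were all among the lower ones. Over the 18 libraries, NtGSTU3 averaged 13.4 ± 6.70 FPKM in root (SD, n = 18). In stalk it ranged up to 0.11 FPKM and was listed at 0 in 9 of 18 libraries. In leaf it ranged up to 0.25 FPKM and was listed at 0 in 7 of 18 libraries. Every root library was thus above every stalk and every leaf library.

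NtGSTU1, the tandem copy, was the most abundant of the trio in root at 43.6 ± 14.4 FPKM (SD, n = 18). Its root libraries ranged between 18.68 FPKM in GDH88 1 and 65.64 FPKM in VxG88 3, with a median of 42.8 FPKM. It averaged 3.06 ± 2.14 FPKM in stalk, with a lowest value of 0.78, a median of 2.26 and a highest value of 8.65 FPKM. In leaf it averaged 8.86 ± 6.32 FPKM, with a lowest value of 1.06, a median of 8.52 and a highest value of 27.74 FPKM. Unlike NtGSTU3 it was above 0 in every library. Its root and stalk libraries did not overlap, while GDH88 leaf 2, at 27.74 FPKM, lay above 2 root libraries, GDH88 1 at 18.68 and HxB 2 at 27.55 FPKM.

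NtGSTU24, the segment copy, averaged 2.26 ± 2.12 FPKM in root, 14.2 ± 4.88 FPKM in stalk and 191 ± 66.2 FPKM in leaf (SD, n = 18 each). Its root libraries ranged between 0.32 and 8.14 FPKM with a median of 1.40 FPKM, its stalk libraries between 6.69 and 21.34 FPKM with a median of 13.9 FPKM, and its leaf libraries between 78.28 and 300.99 FPKM with a median of 180 FPKM. The leaf libraries overlapped neither of the other tissues, and a single root library, Hongda 1, reached the stalk range. By mean FPKM, NtGSTU24 was the 1st of the 59 NtGST members in leaf, the 17th in stalk and the 44th in root. NtGSTU1 was the 19th in root, the 32nd in stalk and the 28th in leaf, and NtGSTU3 was the 28th in root, the 51st in stalk and the 50th in leaf.

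**Figure D1:**
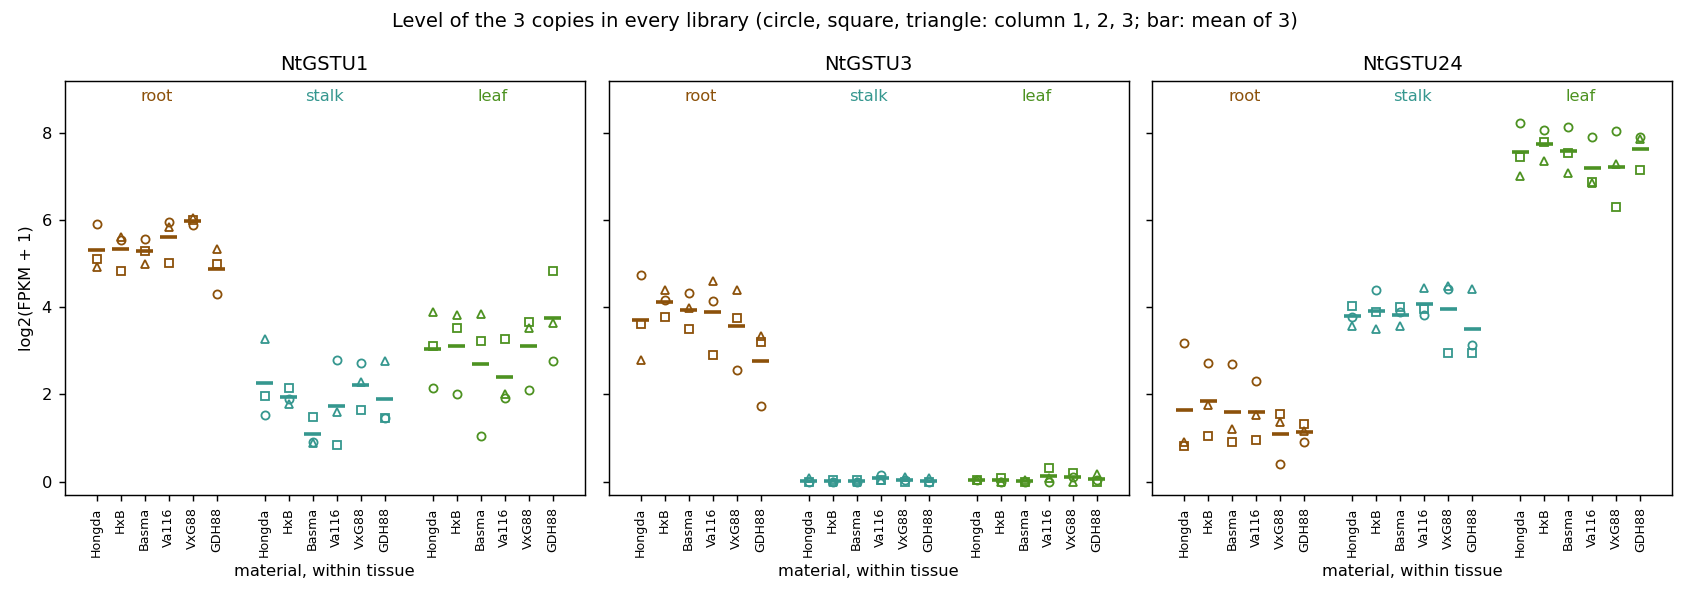
Level of NtGSTU1, NtGSTU3 and NtGSTU24 in each of the 54 libraries. The vertical axis is log2(FPKM + 1), the horizontal axis gives the 6 materials within root, stalk and leaf, symbols are single libraries (circle, square and triangle for column numbers 1, 2 and 3) and bars are means of the 3 libraries on the same scale. NtGSTU3 stands above 1 FPKM in the 18 root libraries only, whereas NtGSTU24 is highest in the 18 leaf libraries.

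The copies' shares of their summed FPKM describe the exchange between tissues. The sum had a median of 56.7 FPKM in root, 17.1 FPKM in stalk and 188 FPKM in leaf (18 libraries each). NtGSTU1 made up a median of 75.0% of it in root (63.5% to 91.7%), 17.1% in stalk and 4.42% in leaf. NtGSTU3 made up 22.0% in root (7.76% to 31.4%). NtGSTU24 made up 2.51% in root (0.504% to 8.73%), 82.9% in stalk (55.7% to 94.8%) and 95.6% in leaf (83.7% to 99.6%). Within the tandem pair, NtGSTU3 stood at a median of 28.9% of the NtGSTU1 level in root, with VxG88 1 lowest at 8.46% and the highest library at 47.6%. That median was only 0.178% for the stalk libraries and 0.245% for the leaf libraries. The assignment of reads that match more than one copy was not described, and the split between close copies is uncertain for that reason.

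The tissues were compared with limma on log2(FPKM + 1) over all 54 libraries, with the material in the model and p-values adjusted over 42820 genes. Differences below are on that scale, which understates the change of a copy near 0. Root minus leaf was 2.38 for NtGSTU1 (SE 0.24, adjusted p = 1.52e-12), 3.60 for NtGSTU3 (SE 0.15, adjusted p = 5.52e-27) and -6.01 for NtGSTU24 (SE 0.20, adjusted p = 3.88e-31). Of all genes tested, 36.4% were called higher in root than in leaf and 37% lower, so a call in either direction was common. By the size of this difference NtGSTU3 ranked 717th and NtGSTU1 2008th from the top of the 42820 genes, and NtGSTU24 ranked 201st from the bottom.
Root minus stalk was 3.55 for NtGSTU1 (adjusted p = 2.94e-18), 3.63 for NtGSTU3 (adjusted p = 1.70e-26) and -2.36 for NtGSTU24 (adjusted p = 1.43e-14), against a background of 26.5% of genes higher and 40.6% lower. Stalk minus leaf was -1.17 for NtGSTU1 (adjusted p = 3.00e-05) and -3.65 for NtGSTU24 (adjusted p = 6.27e-22), with 37.2% of genes called higher and 31.3% lower. For NtGSTU3 it was -0.03 and was not called (adjusted p = 0.888 by limma, 95% interval -0.34 to 0.28). This copy passed the filter on low values through root alone, with 0 of 18 stalk and 0 of 18 leaf libraries at 1 FPKM or more. With 1 added to values this low a difference near 0 was set in advance, and the interval uses a spread shared with root. The comparison of stalk with leaf is therefore not read for NtGSTU3.

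The order of the tissues was therefore root, leaf, stalk for NtGSTU1 and leaf, stalk, root for NtGSTU24. For NtGSTU3 root stood above stalk and leaf, whose own order is not read. By material means, NtGSTU1 and NtGSTU3 were higher in root than in leaf in 6 of 6 materials, and NtGSTU24 was lower in root in 6 of 6. NtGSTU1 was lower in stalk than in leaf in 6 of 6 materials, but the 3 stalk and 3 leaf libraries were free of overlap in 1 of them. With a pseudocount of 0.01 in place of 1, root minus leaf of NtGSTU3 became 8.51, so its size depends on how values near 0 are treated. Without the 5 libraries that matched another material, root minus leaf was 2.40 for NtGSTU1, 3.58 for NtGSTU3 and -6.15 for NtGSTU24. Without the 4 root libraries that stood apart it was 2.39, 3.57 and -6.27 for the copies in that order.

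The same contrast was then taken within each material. NtGSTU3 ranged between 2.69 in GDH88 and 4.09 in HxB (SE 0.37 each) and was called higher in root in all 6 materials. NtGSTU24 ranged between -6.52 in GDH88 and -5.61 in Va116 (SE 0.53 each) and was called lower in root in all 6. NtGSTU1 was 3.20 in Va116, 2.88 in VxG88, 2.59 in Basma, 2.27 in Hongda and 2.22 in HxB (SE 0.59 each), all called, and 1.13 in GDH88, which was not called (adjusted p = 0.130 by limma). In GDH88, NtGSTU1 had 18.68, 31.03 and 39.6 FPKM in root, against 5.86, 27.74 and 11.49 FPKM in leaf. The share of all genes called higher in root was 19.5% in Hongda, 19.4% in HxB, 19.9% in Basma, 16.9% in Va116, 15.3% in VxG88 and 18.5% in GDH88. The share called lower in root was 20.7% in Hongda, 19.6% in HxB, 18% in Basma, 15.5% in Va116, 26.3% in VxG88 and 21.9% in GDH88.

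**Figure D2:**
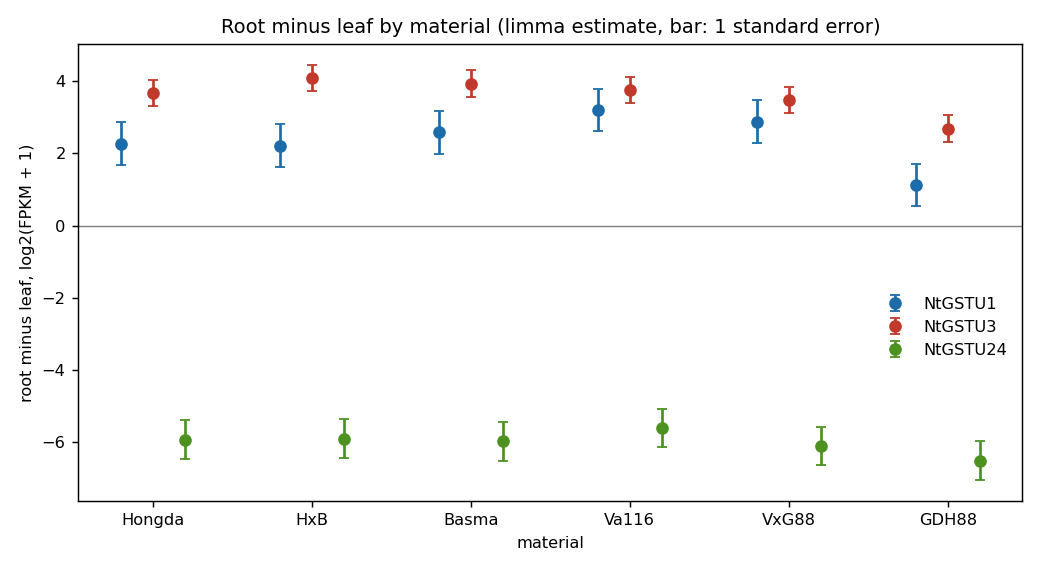
Root minus leaf of the 3 copies in each of the 6 materials. The vertical axis is the limma estimate on log2(FPKM + 1), points are estimates from 3 root and 3 leaf libraries, bars are 1 standard error and the grey line marks no difference. NtGSTU24 lies between -6.52 and -5.61, and NtGSTU1 in GDH88, at 1.13, is the estimate nearest to 0.

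The test of the difference itself, the interaction of tissue and material for root and leaf, called none of the copies. Its adjusted p was 1 for each, and its unadjusted p was 0.224 for NtGSTU1, 0.130 for NtGSTU3 and 0.904 for NtGSTU24, while 0.483% of all genes were called (207 of 42820). GDH88 is thus not shown to differ from the other materials for NtGSTU1. Differences among the 6 materials within a tissue were not called for any copy that could be tested, with unadjusted p-values by limma's F test between 0.101 for NtGSTU1 in root and 0.817 for NtGSTU24 in stalk. NtGSTU3 in stalk and leaf was below the filter on low values and was not tested. Of all genes tested, root had 0.307% called, stalk 0.403% and leaf 1.6%.

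Mean levels of the materials are given as a description beside these tests. In root, GDH88 had the lowest mean for all 3 copies, at 29.8 FPKM for NtGSTU1, 6.54 FPKM for NtGSTU3 and 1.20 FPKM for NtGSTU24. Of its root libraries, column 2 matched VxG88 better than GDH88, and column 1 was among those that stood apart. The highest root means were 62.4 FPKM in VxG88 for NtGSTU1, 16.7 FPKM in HxB for NtGSTU3 and 3.26 FPKM in Hongda for NtGSTU24. In leaf, the means of NtGSTU24 ran between 156 FPKM in Va116 and 218 FPKM in HxB, a ratio of 1.39 between the highest and the lowest. Its coefficient of variation within materials had a median of 40.6% (24.6% to 56.0%). The leaf means of NtGSTU1 ran between 4.85 FPKM in Va116 and 15.0 FPKM in GDH88, a ratio of 3.10, with a median coefficient of variation within materials of 66.3%.

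The leaf levels of NtGSTU1 and NtGSTU24 moved with the column number. In column 1, NtGSTU24 had 300.99 FPKM in Hongda, 269.3 in HxB, 280.61 in Basma, 238.91 in Va116, 262.8 in VxG88 and 238.38 in GDH88, the highest of the 3 leaf libraries in 6 of 6 materials. NtGSTU1 was lowest in column 1 in 6 of 6 materials, at 3.41 FPKM in Hongda, 3.01 in HxB, 1.06 in Basma, 2.77 in Va116, 3.31 in VxG88 and 5.86 in GDH88. In leaf, NtGSTU24 averaged 265 ± 24.3 FPKM in column 1, 153 ± 51.5 in column 2 and 155 ± 42.0 in column 3, and NtGSTU1 averaged 3.24 ± 1.54, 12.4 ± 7.65 and 10.9 ± 4.04 FPKM in the same order (SD, n = 6 each). With the material in the model, limma's F test among column numbers gave an adjusted p of 0.00323 for NtGSTU1 and 0.0152 for NtGSTU24 in leaf. In root neither these copies nor NtGSTU3 were called (adjusted p = 0.560 for NtGSTU1, 0.245 for NtGSTU24 and 0.682 for NtGSTU3), and in stalk NtGSTU1 and NtGSTU24 were not called either (adjusted p = 1.00). This test was chosen after the values had been seen.

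**Figure D3:**
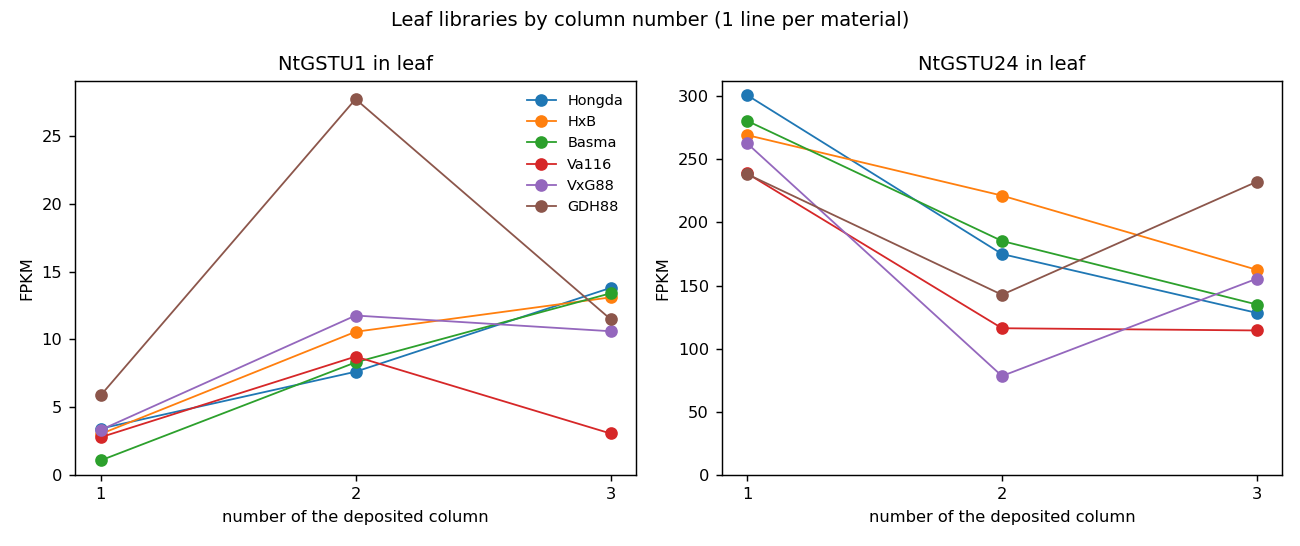
Leaf level of NtGSTU1 and NtGSTU24 by the number of the deposited column. The vertical axes are FPKM, the horizontal axes give column numbers 1, 2 and 3, and each line joins the 3 leaf libraries of 1 material. Column 1 holds the lowest NtGSTU1 and the highest NtGSTU24 value of all 6 materials.

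Within column 1 alone, root minus leaf of NtGSTU1 was 3.53, against 1.60 within column 2 and 2.01 within column 3. This difference among numbers was called (adjusted p = 0.00863 by limma), as it was for 16.1% of all genes. For NtGSTU3 (3.59, 3.36 and 3.87 in columns 1, 2 and 3) and NtGSTU24 (-6.02, -6.10 and -5.92) it was not called, with adjusted p-values of 0.608 and 0.962. All 3 copies kept their call and direction for root minus leaf within each number. Stalk minus leaf of NtGSTU1 was -0.11 within column 1 and was not called there (adjusted p = 0.809), against -2.02 within column 2 and -1.36 within column 3, both called. The lower level of NtGSTU1 in stalk than in leaf therefore rests on columns 2 and 3.

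The balance between copies was tested as the change of their log2 ratio between tissues, with the 6 materials as units and an exact sign-flip permutation test. HxB and VxG88 carry names of crosses between other materials of the set, so the 6 units may not be independent. The smallest p this test allows with 6 materials is 0.0312, which becomes 0.0352 after adjustment over the 9 changes tested. The ratio of NtGSTU3 to NtGSTU24 was higher in root than in leaf by 9.62 ± 0.31 (SD, n = 6 materials), in 6 of 6 materials (exact permutation test, adjusted p = 0.0352). The ratio of NtGSTU1 to NtGSTU24 was higher in root by 8.39 ± 0.50, in 6 of 6 materials with the same p. Both ratios were also higher in root than in stalk, by 5.11 to 6.38 and by 5.22 to 6.62 over the materials, and higher in stalk than in leaf, by 3.62 ± 0.39 and 2.48 ± 0.30, each in 6 of 6 materials at that smallest p. The size of the changes with NtGSTU3 depends on the pseudocount, since this copy is near 0 outside root. For NtGSTU3 over NtGSTU24, root minus leaf was 13.1 with 0.1 and 15.3 with 0.01 in place of 1, and root minus stalk was 9.55 and 12.0 with the same pseudocounts, all in the same direction.

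Within the tandem pair the shift was smaller than for the ratios to NtGSTU24 with 1 added to each value. Its size depends strongly on this added value, since NtGSTU3 is near 0 outside root. The ratio of NtGSTU3 to NtGSTU1 was higher in root than in leaf by 1.22 ± 0.54, in 6 of 6 materials (exact permutation test, adjusted p = 0.0352, n = 6). With 1 added to each value it was higher in stalk than in leaf by 1.14 ± 0.49, in 6 of 6 materials at the same p. NtGSTU3 had 0.25 FPKM or less in both tissues. Stalk minus leaf was -0.03 for NtGSTU3 and -1.17 for NtGSTU1, so this change follows the NtGSTU1 level. It is not read as a shift between the copies. Between root and stalk the log2 ratio, again with 1 added, differed by 0.09 ± 0.46, higher in 2 of 6 materials (adjusted p = 0.625, exact permutation test). This does not show an equal balance. With nothing added, NtGSTU3 had a median of 28.9% of the NtGSTU1 level among root libraries and 0.178% among stalk libraries. With a pseudocount of 0.1 in place of 1 the root minus leaf change was 3.85, and the root minus stalk change was 2.59 and was called (exact permutation test, adjusted p = 0.0312). A pseudocount of 0.01 gave 5.92 for root minus leaf and 4.93 for root minus stalk, both called. The stalk minus leaf change lost its call with a pseudocount of 0.01 (0.98, adjusted p = 0.0625) and without column 2 (0.74, adjusted p = 0.0703, both by the exact permutation test). Without column 3 the root minus leaf change was 0.91 and was not called (exact permutation test, adjusted p = 0.0703).

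Across the libraries of a tissue, the copies were compared by the correlation of log2(FPKM + 1), with 9 correlations tested. The permutations shuffled the libraries of a tissue freely, also for values within column numbers. Libraries share materials and column numbers and may not be independent, so these p-values may be too small. In root, NtGSTU3 and NtGSTU24 varied together (Pearson r = 0.70, permutation p = 0.00126, adjusted 0.0113; Spearman rho = 0.81, permutation p = 1e-04, adjusted 0.0009; n = 18). With the 2 libraries most distant from the NtGSTU3 median left out, r was 0.69, within column numbers it was 0.84, and without the 4 root libraries that stood apart it was 0.71 (permutation p = 0.00355, adjusted 0.0251, n = 14). NtGSTU3 and NtGSTU1 also varied together in root (r = 0.66, permutation p = 0.00295, adjusted 0.0133; rho = 0.58, permutation p = 0.0133, adjusted 0.0298; n = 18). Here r was 0.72 without the 2 farthest libraries and 0.66 within column numbers, but 0.30 within column numbers without the 2 farthest. Without the 4 root libraries that stood apart r was 0.42 and was not called (permutation p = 0.130, adjusted 0.167, n = 14). With the 2 farthest of these 14 also left out r was 0.64, so how far this relation depends on single libraries is not settled. For NtGSTU1 and NtGSTU24 in root, r was 0.47 (permutation p = 0.0502, adjusted 0.0904) and rho 0.55 (permutation p = 0.0201, adjusted 0.0362), so the correlation passed by rank only. Within column numbers it passed by neither (r = 0.43, permutation p = 0.0779, adjusted 0.175; rho = 0.48, permutation p = 0.0435, adjusted 0.0978).

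In leaf, NtGSTU1 and NtGSTU24 varied in opposite directions over all 18 libraries (r = -0.57, permutation p = 0.0136, adjusted 0.0307; rho = -0.63, permutation p = 0.00617, adjusted 0.0278), with r = -0.52 without the 2 farthest libraries. Within column numbers no such relation was seen (r = 0.03, permutation p = 0.912; rho = -0.10, permutation p = 0.704). The pooled value in leaf thus did not hold within column numbers. In stalk, r was 0.29 for these copies (permutation p = 0.245, adjusted 0.275). The correlations of NtGSTU3 in stalk and leaf rest on values of 0 to 0.25 FPKM and are not read.

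**Figure D4:**
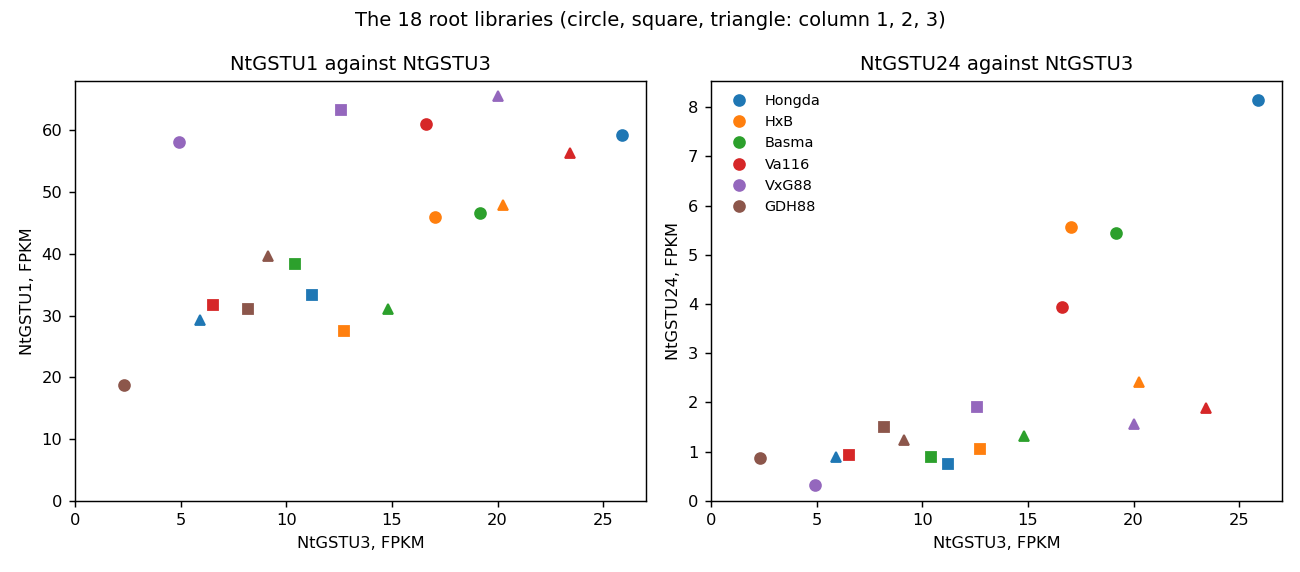
NtGSTU1 and NtGSTU24 against NtGSTU3 in the 18 root libraries. All axes are FPKM, colours are the 6 materials and symbols are the column numbers (circle 1, square 2, triangle 3). NtGSTU24 passes 3 FPKM in column 1 of Hongda, HxB, Basma and Va116 only, and VxG88 1 has 58.19 FPKM of NtGSTU1 beside 4.92 FPKM of NtGSTU3.

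NtGSTU24 reached its highest root levels in column 1 of Hongda (8.14 FPKM), HxB (5.56 FPKM), Basma (5.45 FPKM) and Va116 (3.93 FPKM). The other 14 root libraries lay between 0.32 and 2.41 FPKM, among them column 1 of VxG88 at 0.32 and of GDH88 at 0.87 FPKM. The 4 high libraries had the most genes at 1 FPKM or more of the 18 root libraries, 37004 in Hongda 1, 35845 in HxB 1, 36062 in Basma 1 and 34311 in Va116 1, against 30198 to 34063 in the others. All but Va116 1 were among the root libraries that stood apart, and the part of these features in the NtGSTU24 level was not tested. As a measure of leaf transcripts in root, the FPKM of 50 genes outside the family was summed, the most abundant in leaf among those whose root median was at most 1% of their leaf mean, a measure set up after the values had been seen. In the root libraries this sum was 0.171% to 5.98% of its leaf mean, with a median of 0.315%. The genes were picked by their low median in these same root libraries, so a low median of the sum was built in. It was 1.11% in Hongda 1, 0.227% in HxB 1, 0.269% in Basma 1 and 0.429% in Va116 1. Hongda 1, the highest for NtGSTU24, ranked 2nd by this sum. Basma 2 ranked 1st by it, and had 0.89 FPKM of NtGSTU24. Over the 18 root libraries the sum and NtGSTU24 had r = -0.09 and rho = 0.19. The part of leaf transcripts in the root level of NtGSTU24 was not tested. NtGSTU24 itself stood in root at 0.168% to 4.26% of its leaf mean. Fewer cells of a type and less RNA per cell cannot be told apart in these tissue samples.

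The rest of the Tau class shows how common the root pattern is. Of the 37 other Tau members 36 were tested, and for root minus leaf 26 were higher, 7 lower and 3 not called, with a median of 1.26 on the log2(FPKM + 1) scale, against -0.01 for all genes, of which 36.4% were higher and 37% lower. For root minus stalk 30 were higher, 3 lower and 3 not called, with a median of 2.12 against -0.13 for all genes (26.5% higher, 40.6% lower). For stalk minus leaf 4 were higher, 15 lower and 17 not called, with a median of -0.28 against 0.05 for all genes (37.2% higher, 31.3% lower). NtGSTU1 and NtGSTU3 thus lie on the side of most of the class, and NtGSTU24 lies with the 7 members lower in root. Of the 13 duplicated pairs in the study's table, 10 had both copies called for root minus leaf and 2 of these were called in opposite directions, NtGSTU3 with NtGSTU24 and NtGSTU4 with NtGSTU39. With 36.4% and 37% of all genes called in the 2 directions, opposite calls are not rare, and the count is a description. The number of pairs called in opposite directions was 3 after quantile normalization and 3 with upper quartile scaling.

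The genes nearest to the copies by identifier did not share one pattern. NtGSTU2, beside NtGSTU3, was listed at 0 in 13 of 18 root libraries, in 18 of 18 stalk libraries and in 17 of 18 leaf libraries, with a highest value of 4.26 FPKM in root. Among the genes with the scaffold number of NtGSTU24, NtGSTU26 had medians of 0.42 FPKM in root, 0.165 FPKM in stalk and 51.8 FPKM in leaf, and NtGSTU25 had medians of 19.1 FPKM in root, 52.9 FPKM in stalk and 74.0 FPKM in leaf. Both had their highest median in leaf, as NtGSTU24 did. NtGSTU27 had medians of 124 FPKM in root, 19.4 FPKM in stalk and 79.2 FPKM in leaf, with its highest median in root.

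Over the 18 means of material and tissue, the Pearson correlation of log2 levels was 0.92 between NtGSTU3 and NtGSTU1, -0.77 between NtGSTU24 and NtGSTU3 and -0.54 between NtGSTU24 and NtGSTU1. By the same measure the NtGST members most like NtGSTU1 were NtGSTU7 (0.97), NtGSTU30 (0.96) and NtGSTU17 (0.95). Those most like NtGSTU3 were NtGSTU28 (0.99), NtGSTU20 (0.98) and NtGSTU23 (0.98), all Tau members at or near 0 in leaf. Those most like NtGSTU24 lay outside the Tau class, NtGSTF5 (0.99), NtGSTT1 (0.99) and NtGSTF2 (0.97), of the Phi and Theta classes.

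Among all 42819 other genes tested, the closest to NtGSTU24 were Nitab4.5_0006358g0030 (0.997), Nitab4.5_0000923g0070 (0.995) and Nitab4.5_0011561g0030 (0.995), with leaf means of 380 FPKM, 237 FPKM and 302 FPKM. The second of these carries the scaffold number of NtGSTU1. The closest to NtGSTU3 were Nitab4.5_0000580g0270, Nitab4.5_0000468g0230 and Nitab4.5_0011330g0010 (0.998 each), and the closest to NtGSTU1 were Nitab4.5_0000132g0500, Nitab4.5_0000006g0560 and Nitab4.5_0003727g0010 (0.98 each). The files give no names for these genes. The points of these correlations share their tissues, so high values are common among genes with a strong tissue difference.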

How the data were processed

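The deposited FPKM tables, 1 per tissue with 2 decimals, were used as the authors made them. Processing notes of the submitters list the tools StringTie, RSEM and HISAT2. Their versions and options, the genome build and the depth are not given in any source used here. The unit comes from the study, and the even sums per library could also be those of TPM. Columns were assigned to material and tissue by name, and 0 columns were left without a group. The study's methods describe 3 biological replicates with 3 plants in each for its tissue sampling, and do not say whether this holds for the earlier RNA sequencing data. The labels give no plants, and no source ties a column to its replicate.

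A gene was kept where 3 or more libraries of the fit had 1 FPKM or more, and log2(FPKM + 1) was fitted with limma 3.58.1 (R 4.3.3) with a variance trend. The Benjamini-Hochberg adjustment of the two-sided p-values ran over all genes kept, with a threshold of 0.05. The fits were tested on simulated data. Correlations used 100000 resamples, and ratios all 64 sign patterns (scipy 1.17.1, numpy 2.4.6, pandas 2.3.3, matplotlib 3.10.9, Python 3.11.15).

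The genes named are the 3 copies, the NtGST members that share a scaffold number with them, and for each copy the 3 genes and 3 NtGST members with the highest correlation over group means. NtGSTU4 and NtGSTU39 were named after their values were seen. The members, lists and tests were chosen with earlier results of these data known. No cell type markers could be used to check the tissues, since the files name no genes. The stress treatments and RT-qPCR of the study were not analysed here.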

Additional observations from a re-analysis of the deposited data

Results flagged for a closer look

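Root minus leaf of NtGSTU1 differed among the column numbers of the deposited libraries (adjusted p = 0.0086 by limma's test of the difference among numbers). It was 3.53 on the log2(FPKM + 1) scale within column 1, 1.60 within column 2 and 2.01 within column 3, with 6 root and 6 leaf libraries in each. NtGSTU1 averaged 48.3 FPKM in root and 3.24 FPKM in leaf within column 1, 37.5 FPKM in root and 12.4 FPKM in leaf within column 2, and 45.0 FPKM in root and 10.9 FPKM in leaf within column 3. The numbers are names of deposited columns and not groups of the study, and what they stand for was not tested.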

How the results depend on the processing

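For 62 results, 719 values were recomputed under other settings, and 702 of them kept the direction and the side of the threshold or stayed within 1.5 times the count. Within column 1 alone, stalk minus leaf was -0.11 for NtGSTU1 and 0.0017 for NtGSTU3, and 1 other Tau member was higher in stalk than in leaf (2 within column 2), against 4 with all libraries. For the ratio of NtGSTU3 to NtGSTU1, the root minus stalk change was 2.59 with a pseudocount of 0.1, 4.93 with 0.01 and -0.0062 with the median of 3 libraries, and the stalk minus leaf change, 1.14 with a pseudocount of 1, was 0.98 with a pseudocount of 0.01. Without one of the column numbers these changes ran between -0.12 and 0.22 for root minus stalk, 0.74 and 1.65 for stalk minus leaf and 0.91 and 1.81 for root minus leaf. For NtGSTU1 and NtGSTU24, r in root was 0.75 on residuals from material means and 0.55 after quantile normalization, both called, and r in leaf was -0.51 after quantile normalization, not called, and 0.028 on residuals from column numbers. For NtGSTU3 and NtGSTU1, r in leaf was -0.18 on those residuals, and r in root was 0.42, not called, without the 4 root libraries that stood apart. The cause was not tested. Upper quartile scaling moved the median root minus leaf of all genes to 0.14 and root minus stalk to 0.05, and the share of calls that were higher for root minus stalk to 56.3%, against 39.5% without it. Leaving out the 5 libraries that matched another material changed no call on a copy. In the fit of stalk and leaf alone NtGSTU3 was below the filter and gave no value. The column number was not taken as a pairing, since not every same-numbered pair of libraries correlated above 0.1. Between different tissues of the same material 31 of 54 pairs did (mean r = 0.08). Between different materials 33 of 45 pairs did in leaf (mean r = 0.35), 24 of 45 in root and 16 of 45 in stalk. Same-numbered leaf libraries thus did deviate together on average, and this rule does not show that the number can be ignored. With the number as a replicate block, root minus leaf of NtGSTU1 was 2.38 (adjusted p = 7.43e-13 by limma), and no call on a copy changed. Column numbers alone, the sets of 5 and of 4 libraries left out and the residuals from column numbers were added after seeing the data. The unknown depth limits what can be said of NtGSTU3 in stalk and leaf.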
